A study of Mus musculus with 6 samples.

Results

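A group of 6 erythroid genes was followed through lungs that had been flushed with chilled PBS, as a measure of the blood that perfusion left behind. The group held 4 adult globin genes (*Hba-a1*, *Hba-a2*, *Hbb-bs* and *Hbb-bt*), *Alas2* and *Slc4a1*, taken by gene name from a count table of 54532 genes. All 6 names were found, each on 1 row, and all 6 were among the 18689 genes that reached 0.5 CPM (counts scaled to library size) in at least 1 library. *Slc4a1* reached that level in a single library, ISM1-/- replicate 2. The study compared whole lungs of untreated mice at 2 months old, 3 wild-type (WT) and 3 labelled ISM1-/-, with 1 library per mouse. ISM1 (isthmin-1) is a secreted protein, and the study examined how lungs without it differ at baseline. Both genotypes were C57BL/6J. The WT mice were bought from a supplier and the ISM1-/- line was bred in-house, so source and genotype cannot be told apart.

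Adult haemoglobin is a tetramer of a pair of alpha chains and a pair of beta chains around haem, and its genes are transcribed in erythroid cells of the bone marrow and spleen. Circulating mouse red cells have no nucleus, and young red cells, the reticulocytes, still carry leftover messenger RNA in which globin transcripts dominate. *Alas2* encodes the erythroid enzyme that starts haem synthesis, and *Slc4a1* encodes band 3, the anion exchanger of the red cell membrane. A lung library can therefore contain these transcripts through blood in its vessels. In bulk tissue, fewer reticulocytes and less RNA per reticulocyte cannot be told apart.

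The 6 libraries held between 37606133 and 42345042 counts. Markers of the tissue were present in each, with 6 alveolar type 2 cell genes summing to between 19717 and 21378 CPM. *Ism1* transcript was still present in the libraries labelled ISM1-/-, at 2784, 2508 and 2953 counts, against 3098, 3215 and 2975 in WT (log2 fold change -0.19, adjusted p = 0.217 by edgeR, Benjamini-Hochberg). That adjusted p was 0.0356 without ISM1-/- replicate 3. WT replicate 1 stood apart in heart muscle transcripts, with 1623 CPM over 8 cardiomyocyte genes against 291 to 634 CPM in the other libraries.

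The globin genes come as near-copies. *Hba-a1* (ENSMUSG00000069919, chr11:32283511-32284465, plus strand) and *Hba-a2* (ENSMUSG00000069917, chr11:32296489-32297298, plus strand) encode alpha chains, in GRCm38 coordinates. *Hbb-bs* (ENSMUSG00000052305, chr7:103826534-103828096, minus strand) and *Hbb-bt* (ENSMUSG00000073940, chr7:103812524-103813996, minus strand) encode beta chains. Within each pair the coding sequences differed at 1 base, over 429 bases for the alpha genes and 444 bases for the beta genes. Of the 150-base windows of the transcripts, 48.4% of those in *Hba-a1*, 65.7% in *Hba-a2*, 58.7% in *Hbb-bs* and 50.7% in *Hbb-bt* also occurred in the partner. The division of counts within a pair is therefore uncertain. If reads that match both copies were left out of the counts, the sums over the pairs, the alpha share and the order of levels would be affected too, which was not tested. *Alas2* (ENSMUSG00000025270, chrX:150547375-150570638, plus strand) lies entirely within the span of *Apex2*, a DNA repair gene on the opposite strand. *Apex2* had between 281 and 360 counts in each library, and whether the counting used strand is not given in the sources used here. *Slc4a1* (ENSMUSG00000006574, chr11:102348824-102366203, minus strand) overlapped no other gene.

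The promoters of 5 of the 6 genes were found in the RefSeq table for GRCm38.p6, and they are shown for their sequence only. Whether they bear on the levels in these lungs was not tested. Each line gives the 250 bases before the RefSeq transcription start, 5′ to 3′ on the strand of the gene. The gene starts of the count table lie further upstream, within these windows. Capitals mark GATAA (the core of a GATA factor site), CACCC (a core bound by factors of the KLF family), CCAAT and TATAA, each searched on both strands. Adjacent or overlapping matches run together in capitals. The windows are chr11:32283422-32283671 for *Hba-a1*, chr7:103827929-103828178 for *Hbb-bs*, chr7:103813924-103814173 for *Hbb-bt* and chrX:150547167-150547416 for *Alas2*.
Hba-a1: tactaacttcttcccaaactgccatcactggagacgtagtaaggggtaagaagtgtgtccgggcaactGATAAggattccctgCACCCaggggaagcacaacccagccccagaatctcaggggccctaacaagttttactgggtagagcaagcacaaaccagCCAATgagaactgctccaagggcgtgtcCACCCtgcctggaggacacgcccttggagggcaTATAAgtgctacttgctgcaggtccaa
Hbb-bs: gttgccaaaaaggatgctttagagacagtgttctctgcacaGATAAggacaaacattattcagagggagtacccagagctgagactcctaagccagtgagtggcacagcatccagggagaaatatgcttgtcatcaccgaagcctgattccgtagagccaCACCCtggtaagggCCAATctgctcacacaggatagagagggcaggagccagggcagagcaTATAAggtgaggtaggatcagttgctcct
Hbb-bt: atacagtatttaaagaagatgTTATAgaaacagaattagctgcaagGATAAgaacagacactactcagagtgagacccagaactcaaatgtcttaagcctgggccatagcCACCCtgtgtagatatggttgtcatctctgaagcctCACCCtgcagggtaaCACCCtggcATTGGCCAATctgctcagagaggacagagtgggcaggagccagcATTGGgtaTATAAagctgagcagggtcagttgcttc
Alas2: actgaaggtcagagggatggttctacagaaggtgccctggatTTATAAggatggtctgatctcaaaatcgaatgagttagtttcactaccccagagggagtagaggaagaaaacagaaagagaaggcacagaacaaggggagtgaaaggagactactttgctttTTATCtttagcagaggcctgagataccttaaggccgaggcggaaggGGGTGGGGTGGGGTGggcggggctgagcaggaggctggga
The *Hba-a2* promoter (chr11:32296242-32296491) was identical to that of *Hba-a1* over the 247 bases compared, and *Slc4a1* was not in the table. The beta gene promoters, in contrast, matched at 51.2% of 250 positions aligned without gaps. All 4 globin promoters held each of the 4 motifs, with a TATAA 27 to 30 bases before the start. Across 27025 promoters of the same length, 23.0% held GATAA, 51.3% CACCC, 34.5% CCAAT and 23.5% TATAA, and 272 (1.01%) held all 4. *Alas2* held GATAA once on the minus strand, CACCC 3 times on the minus strand and TATAA 207 bases before the start, with no CCAAT in this window.

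Globin transcripts remained in every perfused lung, and their level followed the library rather than the genotype. The 4 adult globin genes together gave 249.7, 130.4 and 429.6 CPM in WT replicates 1, 2 and 3. The ISM1-/- replicates 1, 2 and 3 gave 143, 598 and 153 CPM. The highest library was an ISM1-/- lung, the next a WT lung, and the lowest a WT lung. These levels were 0.0130% to 0.0599% of all counts, or between 5415 and 22722 counts. The highest library exceeded the lowest 4.59-fold, with a 3.30-fold range within WT and a 4.18-fold range within ISM1-/-. The mean was 269.9 ± 151 CPM in the WT lungs and 298 ± 260.1 CPM in the ISM1-/- lungs (SD, n = 3 each), a ratio of 1.10. The coefficient of variation was 55.8% in WT and 87.3% in ISM1-/-, so the difference between the means was far smaller than the spread between mice of 1 genotype. Without ISM1-/- replicate 2 the ratio of ISM1-/- to WT was 0.549, and without WT replicate 3 it was 1.57.

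*Hbb-bs*, which encodes an adult beta chain, was the most abundant member. Its levels were 142.5, 73.9 and 245 CPM in the WT libraries and 84.2, 356 and 89.0 CPM in the ISM1-/- libraries, in replicate order. *Hbb-bt*, its neighbour, gave 10.4, 6.81 and 21.3 CPM in WT and 5.85, 26.4 and 11.1 CPM in ISM1-/-. Both genes were highest in ISM1-/- replicate 2 and next highest in WT replicate 3, and the genotypes overlapped. *Hba-a1* showed the same order of libraries as *Hbb-bs*, with 73.8, 36.0 and 119 CPM in WT and 38.6, 157 and 39.6 CPM in ISM1-/-. *Hba-a2* gave 22.9, 13.6 and 43.7 CPM in WT and 14.3, 59.0 and 13.2 CPM in ISM1-/-. Among the other 4 libraries, WT replicate 1 was highest for both alpha genes.

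**Figure D1:**
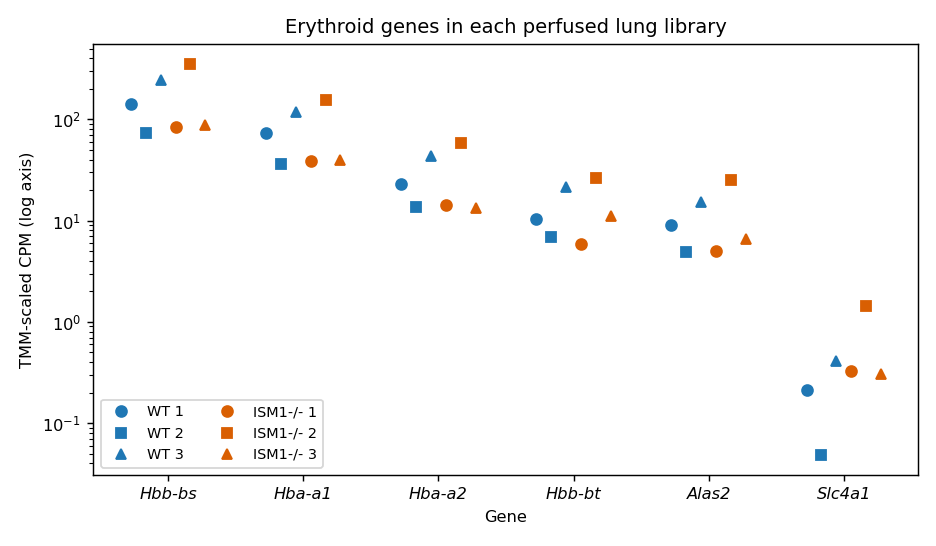
Level of each erythroid gene (CPM, log axis) in the 6 libraries, with 1 point per mouse, WT in blue and ISM1-/- in orange, and a shape for each replicate number. For the globin genes and *Alas2*, ISM1-/- replicate 2 is highest and WT replicate 3 next, and the genotypes overlap for all 6 genes.

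*Alas2* transcripts were less abundant than those of the globins and followed them. It had 8.96, 4.89 and 15.3 CPM in the WT libraries, and 5.05, 25.02 and 6.63 CPM in the ISM1-/- libraries. The lowest library again was WT replicate 2 and the highest ISM1-/- replicate 2, a 5.12-fold range. *Apex2*, which shares its span, ranged from 281 to 360 counts, whereas *Alas2* ranged from 203 to 950 counts.

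*Slc4a1* was near the limit of detection. The WT lungs gave 8, 2 and 16 counts and the ISM1-/- lungs 14, 54 and 12 counts, which is 0.212, 0.0481 and 0.413 CPM against 0.329, 1.42 and 0.307 CPM. The highest library was again ISM1-/- replicate 2 and the next WT replicate 3. Counts this low carry a wide counting error, and 3 counts, the limit that a count of 0 allows, correspond to 0.0708 to 0.0798 CPM in these libraries.

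Levels of different genes were compared per length, as deposited FPKM (fragments scaled by transcript length and library depth). The lengths used are not given in the sources used here. For *Hba-a1*, *Hba-a2*, *Hbb-bs*, *Alas2* and *Slc4a1* they differ from the gene lengths of the count table (812, 667, 768, 2403 and 4891 bases). The distance between genes, also that between globin genes, depends on the length used. Mean WT levels were 336.5 FPKM for *Hbb-bs*, 128 FPKM for *Hba-a1*, 51.2 FPKM for *Hba-a2*, 18.3 FPKM for *Hbb-bt*, 7.82 FPKM for *Alas2* and 0.189 FPKM for *Slc4a1*. The ISM1-/- means followed the same order, at 384, 131, 55.01, 20.5, 9.82 and 0.574 FPKM. This order also held within each of the 6 libraries. The range between libraries of *Hbb-bs* (161.2 to 776.8 FPKM) and that of *Hba-a1* (60.4 to 263.8 FPKM) overlapped, as did those of other neighbours in the order down to *Alas2*.

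None of the 6 genes differed between the genotypes in edgeR's quasi-likelihood fit, with p-values adjusted by Benjamini-Hochberg over all genes tested. Of all 18689 genes, 882 passed an adjusted p of 0.1 (4.72%), and 106 of these changed at least 2-fold (0.567%). DESeq2 called 1285 of the 18689 at that threshold, 466 higher and 819 lower in ISM1-/-. The share of all genes with an unadjusted p under 0.05 is not given here. Counts of such genes, here and in the lists below, therefore have no background to be read against. For the members, 0 of 6 passed, 0 had an unadjusted p under 0.05, and DESeq2 called 0, with 1 unadjusted p under 0.05 (*Slc4a1*, whose adjusted p DESeq2 gave as NA). No member was free of overlap between the genotypes in CPM, against 21.6% of all genes tested. The log2 fold changes of ISM1-/- over WT were 0.04 ± 0.542 (SE) for *Hba-a1* and 0.11 ± 0.559 for *Hba-a2*, with adjusted p of 0.986 and 0.955. For the beta genes they were 0.20 ± 0.550 for *Hbb-bs* and 0.17 ± 0.508 for *Hbb-bt*, with adjusted p of 0.912 and 0.920. The 95% intervals were wide. That of *Hbb-bs* ran from 0.489-fold to 2.68-fold and that of *Hba-a1* from 0.443-fold to 2.38-fold. With 3 mice a group, changes within these intervals remain compatible with the data. The intervals are not a limit of detection, and larger changes could also miss the threshold. *Alas2* had a log2 fold change of 0.33 ± 0.561 (adjusted p = 0.843, interval 0.528-fold to 2.999-fold). *Slc4a1* had the highest estimate of the members, 1.60 ± 0.749, with an interval of 0.952-fold to 9.67-fold, an unadjusted p of 0.0586 and an adjusted p of 0.339. It entered the test only through ISM1-/- replicate 2, the library where it is highest. Without a filter on low counts its log2 fold change was 1.59 and the adjusted p was 0.0804. Without ISM1-/- replicate 2 it could not be tested.

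The sign of the estimates rested on single libraries. Without ISM1-/- replicate 2 the log2 fold changes became -0.96 for *Hba-a1*, -0.95 for *Hba-a2*, -0.83 for *Hbb-bs*, -0.60 for *Hbb-bt* and -0.73 for *Alas2*. Without WT replicate 2, the library with least globin, those of the 4 globin genes lay between -0.30 and -0.14. No globin gene and no *Alas2* estimate passed the threshold in any fit that left out 1 library.

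**Figure D2:**
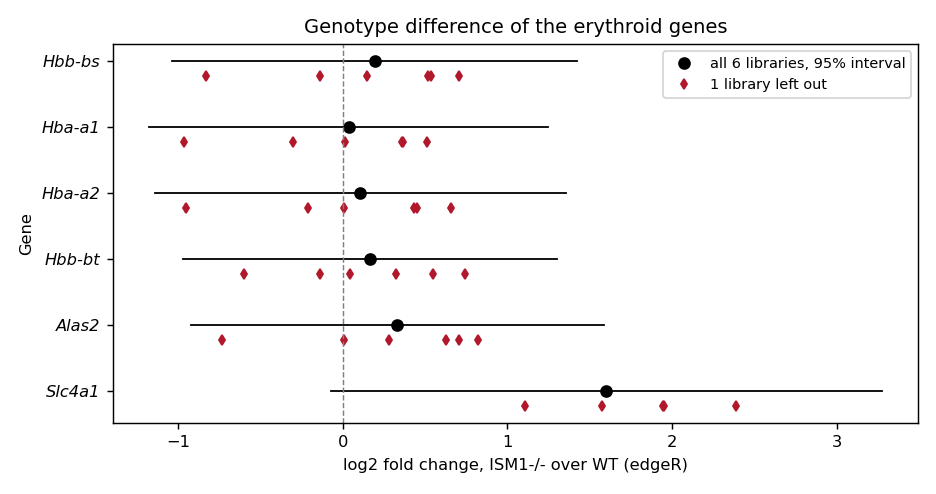
Log2 fold change of ISM1-/- over WT for the 6 genes by edgeR, with black points for the fit of all 6 libraries and bars for its 95% intervals; red diamonds show fits with 1 library left out. Every interval spans 0, and for the globin genes and *Alas2* the diamonds lie on both sides of 0.

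The members varied between mice far more than most genes. Within a genotype, the SD of log2 CPM was 0.965 for *Hbb-bt*, 1.02 for *Hba-a1*, 1.03 for *Hbb-bs*, 1.04 for *Hba-a2* and *Alas2*, and 1.14 for *Slc4a1*. The median over 15876 genes (mean CPM of 1 or more) was 0.112 and the 99th percentile 0.566, so the 4 globin genes and *Alas2* lay above the 99th percentile. The ratio of the highest to the lowest library was 4.36 for *Hba-a1*, 4.46 for *Hba-a2*, 4.81 for *Hbb-bs* and 4.51 for *Hbb-bt*, against a median gene at 1.26 and a 95th percentile of 2.13. The globin genes and *Alas2* thus varied by a factor that few lung transcripts reached. *Slc4a1*, with a mean under 1 CPM, is not among those genes, and counting error adds to its SD.

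*Hba-a1*, *Hba-a2*, *Hbb-bs* and *Alas2* rose and fell together, and *Hbb-bt* and *Slc4a1* followed less closely. Across the 6 libraries, the Pearson r of log2 CPM with the log2 summed globin CPM was 0.9996 for *Hbb-bs*, 0.997 for *Hba-a1*, 0.994 for *Hba-a2* and 0.942 for *Hbb-bt*. These genes form the sum, and *Hbb-bs* is its main part. *Alas2*, which is not in the sum, had an r of 0.991 and a slope of 1.01, so that its level changed by about the same factor as the globins. Over the 4 libraries left without the pair farthest from the median, its r was 0.947. *Slc4a1* had an r of 0.787 and a slope of 1.08. Over the same 4 libraries r fell to 0.617 for *Hbb-bt* and 0.278 for *Slc4a1*, so the likeness of these genes to the globin sum rested on the pair left out, while it was 0.958 or more for the other 3 globin genes. All values come from the same 6 libraries and are a description only.

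The makeup of the residual transcripts was examined apart from their amount. Alpha chain genes supplied 38.7%, 38.1% and 37.9% of adult globin counts in WT replicates 1 to 3, and 37.0%, 36.1% and 34.6% in ISM1-/- replicates 1 to 3. The mean share was 38.2% ± 0.430 (SD, n = 3) in WT and 35.9% ± 1.24 (SD, n = 3) in ISM1-/-, without overlap. For scale, 21.6% of all genes tested did not overlap between the genotypes in CPM. The lowest WT share, in replicate 3, had a 95% Wilson interval of 37.2% to 38.7%, and the highest ISM1-/- share, in replicate 1, one of 35.8% to 38.2%. These intervals cover counting error only, and they overlap. The share of *Hba-a2* in alpha counts ran from 23.7% to 27.5% with overlapping genotypes. *Hbb-bt* supplied 6.50% to 8.44% of beta counts in 5 libraries but 11.1% (Wilson interval 10.1% to 12.1%) in ISM1-/- replicate 3. That library was also lowest in the alpha share. The split within a pair of near-copies is subject to the counting limit given above.

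Per 1000 adult globin counts, *Alas2* contributed 35.9, 37.5 and 35.5 counts in the WT lungs, and 35.3, 41.8 and 43.4 counts in the ISM1-/- lungs. The range of this ratio was 1.23-fold while the globin level itself ranged 4.59-fold, and the genotypes overlapped. *Slc4a1* contributed 0.849, 0.369 and 0.962 counts per 1000 globin counts in WT. In ISM1-/- it contributed 2.30, 2.38 and 2.01 counts. The means were 0.727 ± 0.315 in WT and 2.23 ± 0.194 in ISM1-/- (SD, n = 3 each), a ratio of 3.07, and the genotypes did not overlap. The WT values rest on 8, 2 and 16 counts, and the exact Poisson intervals of WT replicate 1 (0.367 to 1.67) and ISM1-/- replicate 1 (1.26 to 3.86) overlapped. Those of the libraries with most globin, WT replicate 3 (0.550 to 1.56) and ISM1-/- replicate 2 (1.79 to 3.10), did not. The interval of WT replicate 3 did overlap those of ISM1-/- replicate 1 and replicate 3 (1.04 to 3.51). Every pair of WT and ISM1-/- intervals without overlap involved ISM1-/- replicate 2. A check chosen after the data had been seen put the globin level as a covariate in the edgeR quasi-likelihood fit. There the log2 fold change of *Slc4a1* was 1.49 with a Benjamini-Hochberg adjusted p of 0.119. *Slc4a1* entered that fit only through ISM1-/- replicate 2, the library where it is highest, so the fit is no separate support for the ratio. Of the shares and ratios examined, only the alpha share and the *Slc4a1* ratio did not overlap between the genotypes. In CPM, 21.6% of all genes tested did not overlap either. The alpha share and the *Slc4a1* ratio were not tested between genotypes themselves.

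**Figure D3:**
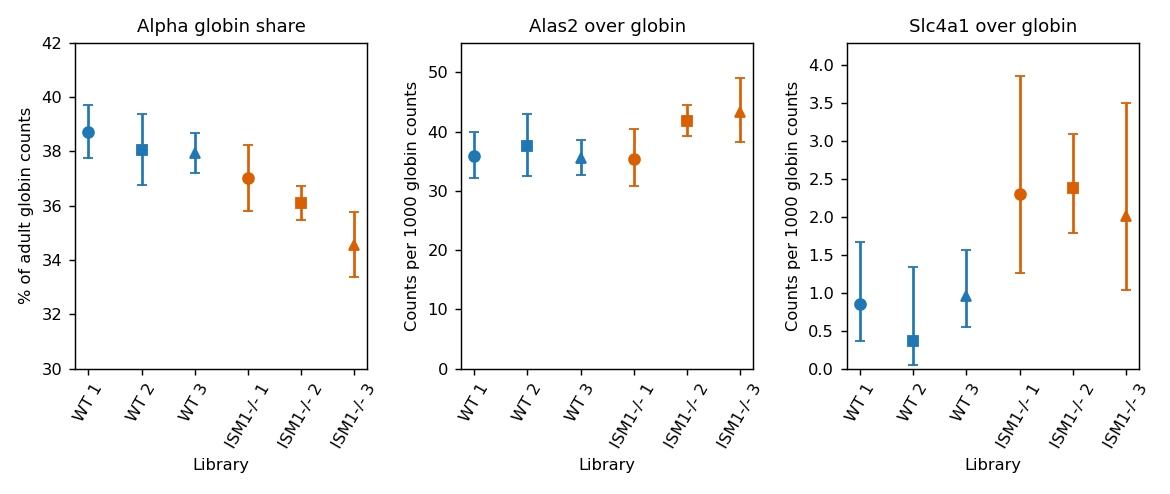
Makeup of the residual erythroid transcripts in each library, as the alpha share of adult globin counts (%, axis from 30 to 42) and as *Alas2* and *Slc4a1* counts per 1000 globin counts; bars are 95% counting intervals, Wilson for the share and exact Poisson for the ratios. *Alas2* stays between 35.3 and 43.4, whereas *Slc4a1* lies below 1 in WT and at 2.01 or above in ISM1-/-. The *Slc4a1* ratio rests on 2 to 54 counts per library and was not tested between genotypes.

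The label of the group was checked against the rest of the erythroid programme, using 71 further genes of 5 lists. Of these, 70 were in the table and 51 were tested. The embryonic globins *Hba-x*, *Hbb-bh1* and *Hbb-bh2* were at 0 in every library, and *Hbb-y* had at most 4 counts. Genes of the other lists were not alike in level. *Klf1*, an erythroid transcription factor, had 9, 4 and 13 counts among WT lungs and 5, 15 and 1 among ISM1-/- lungs. *Rhag*, of the Rh complex of the membrane, was at 0 in all 6 libraries. Other genes of the same lists that are expressed beyond red cells were well detected, such as *Tfrc* (the transferrin receptor, 3033 to 3713 counts) and *Tal1* (a transcription factor also of endothelium, 1059 to 1375 counts). In the list of red cell membrane and skeleton genes, *Epb41* (5956 to 8720 counts) and *Sptb* (beta spectrin, 296 to 432 counts) were detected throughout, unlike *Rhag*.

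Of the 51 other erythroid genes tested, 2 passed an adjusted p of 0.1 by edgeR's quasi-likelihood test (3.92%, against 4.72% of all genes), both lower in ISM1-/- (3.34% of all genes were lower and 1.38% higher). Their median log2 fold change was -0.02, against 0.00 over all genes tested, and 18 of them (35.3%) did not overlap between the genotypes, against 21.6% of all genes. The first was *Ank1*, which encodes the ankyrin that ties band 3 to the red cell skeleton, at 436, 184 and 275 counts for WT against 132, 138 and 160 counts for ISM1-/-. Its highest library was WT replicate 1, which also held the most heart muscle transcripts, and its log2 fold change of -1.09 ± 0.294 (edgeR adjusted p = 0.0942) became -0.67 (adjusted p = 0.178) without that library. The call was also lost without any 1 of WT replicate 3 or the ISM1-/- replicates, with adjusted p of 0.111 to 0.278. The second was *Tent5c*, a poly(A) polymerase gene, at 57.5 ± 7.15 CPM in WT against 42.6 ± 2.65 CPM in ISM1-/- (SD, n = 3 each; log2 fold change -0.43 ± 0.0941, edgeR adjusted p = 0.0472), a call that was lost without any 1 of WT replicate 2, WT replicate 3, ISM1-/- replicate 1 or ISM1-/- replicate 2. Neither followed the globins, with r of 0.229 for *Ank1* and -0.14 for *Tent5c*.

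Most of the other erythroid genes hardly moved with the globin level. Their median ratio of the highest to the lowest library was 1.24, and 5 of 51 reached 2-fold. In the list of haem synthesis and erythroid iron genes, which includes *Alas2*, 0 of 16 passed the edgeR threshold, 2 had an unadjusted p under 0.05, and DESeq2 called 0. *Fech*, which encodes ferrochelatase, the last enzyme of haem synthesis, had an r of 0.896 with the globins but a range of 1.19-fold. *Bpgm*, which makes the 2,3-bisphosphoglycerate of red cells, had an r of 0.816 and a range of 1.30-fold. In the list of erythroid regulators 0 of 7 passed, 3 had an unadjusted p under 0.05, and DESeq2 called 0.

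Among all 15871 other genes whose mean reached 1 CPM, 22 had an r of 0.9 or more with the summed globins over the 6 libraries, and 29 an r of -0.9 or less. The genes most like the globins in r, between 0.997 and 0.920, included *Atraid*, *Supt3*, *Gm37090*, *Adck1*, *Ddx41*, *4930444A19Rik*, *Gm49077*, *Gm13293* and *Lamtor4*. *Atraid* led with an r of 0.997, but its level ranged 1.08-fold and its slope was 0.0474. *Gm49077* ranged 2.04-fold, with a slope of 0.417. A high r over 6 libraries therefore did not by itself mean a change of the size that the members showed.

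**Figure D4:**
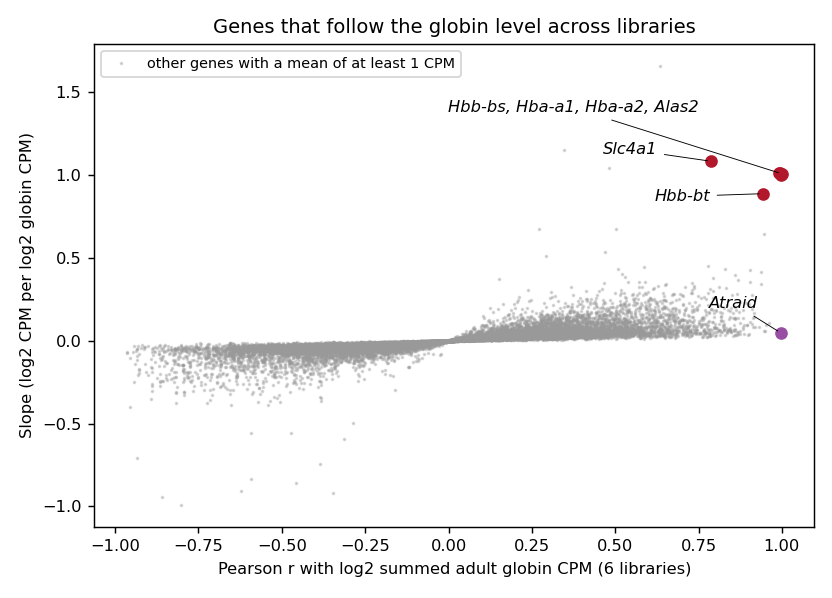
Slope of log2 CPM on the log2 summed globin CPM against Pearson r over the 6 libraries, with members in red, *Atraid* in purple and the other genes whose mean reached 1 CPM in grey. The globin genes and *Alas2* lie at slopes of 0.888 to 1.01, *Atraid* is at 0.0474, and *Slc4a1*, whose mean is under 1 CPM, at an r of 0.787.

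Genes of other blood cells were set beside the red cell transcripts. Platelets carry RNA from megakaryocytes, and 15 platelet genes, 14 of them tested, summed to between 741 and 880 CPM, a 1.19-fold range. Most of that sum was *Vwf* (669 to 790 CPM), which encodes von Willebrand factor and is also expressed by endothelium. Without *Vwf*, a choice made after the data had been seen, the 13 others summed to 71.8, 78.9 and 80.6 CPM in the WT lungs and 89.5, 90.2 and 97.4 CPM in the ISM1-/- lungs, a 1.36-fold range in which the highest library was ISM1-/- replicate 3. Single genes of the list had a median range of 1.79-fold, and 9 of 14 did not overlap between the genotypes, against 21.6% of all genes. *Pf4*, platelet factor 4, had 257, 248 and 238 counts among WT lungs and 226, 204 and 229 among ISM1-/- lungs, while globin levels ranged 4.59-fold. The platelet gene that passed was *Tubb1* (the beta-tubulin of platelets), which was higher in ISM1-/- with a log2 fold change of 0.62 ± 0.134 (edgeR adjusted p = 0.0465). Its call was lost without any 1 of WT replicates 2 and 3 or ISM1-/- replicates 1 and 2, and the median log2 fold change of the list was 0.27.

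Neutrophil genes were higher in ISM1-/- for 5 of 10 tested (*S100a8*, *S100a9*, *Cxcr2*, *Csf3r* and *Ngp*), against 1.38% of all genes. Their list summed to 111, 106 and 125 CPM in WT and to 181, 166 and 133 CPM in ISM1-/-. *Ltf* supplied much of this sum and went the other way. It gave 56.7, 50.2 and 54.2 CPM in WT and 35.2, 45.2 and 49.0 CPM in ISM1-/-. Its log2 fold change was -0.32 (edgeR unadjusted p = 0.0171, adjusted p = 0.187), so the sum mixes opposite trends. The highest library for the neutrophil sum was ISM1-/- replicate 1, which was second lowest in globin. *S100a8*, a calcium-binding alarmin gene, rose from 178, 190 and 242 counts (WT) to 852, 487 and 418 counts (ISM1-/-) (log2 fold change 1.49, edgeR adjusted p = 0.0163), and its r with the globins was 0.00156. *S100a8* ranged 4.38-fold and *S100a9* 4.88-fold between libraries, a factor close to that of the globins, in another order of libraries. *S100a8* and *S100a9* passed in every fit that left out 1 library, while each of the other 3 lost its call in at least 1 of them. For B cells edgeR called 4 of 6 genes higher in ISM1-/-, against 1.38% of all genes, and DESeq2 called 4. Their list summed to 116, 106 and 122 CPM in WT and 219, 169 and 126 CPM in ISM1-/-. The 6 monocyte genes summed to between 1381 and 1595 CPM, but *Ace*, which is also abundant in lung endothelium, gave 1267 to 1464 CPM of this. Without *Ace*, also a choice made after the data had been seen, the other 5 ranged 1.70-fold, from 103 CPM in WT replicate 3 to 174 CPM in WT replicate 1. For T cells and monocytes 0 of 6 passed in each list by edgeR. In these lists 3 and 1 had an unadjusted p under 0.05, and DESeq2 called 2 and 0.

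**Figure D5:**
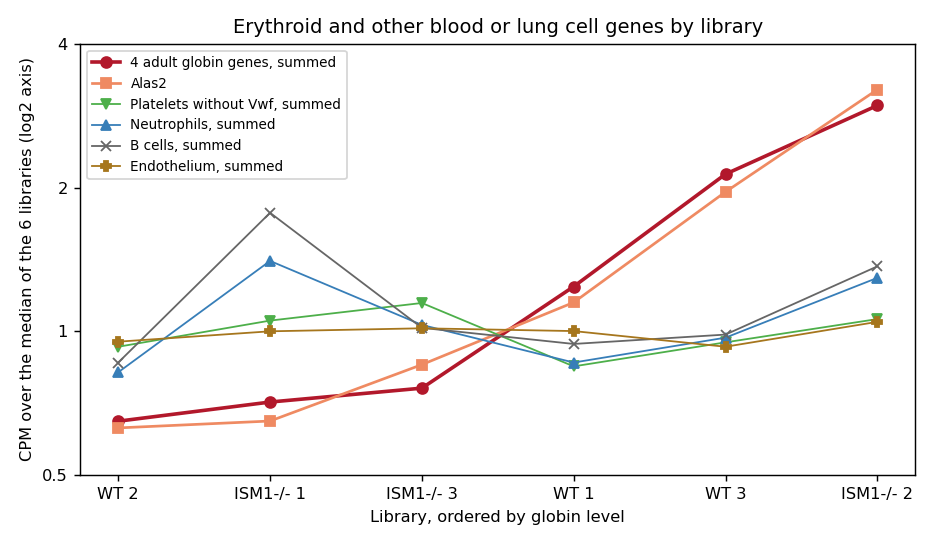
Level in each library over the median of the 6 libraries (CPM ratio, log2 axis), with libraries ordered from the lowest to the highest summed globin CPM; lines stand for the 4 adult globin genes summed, *Alas2* and the summed genes of platelets (without *Vwf*), neutrophils, B cells and endothelium. *Alas2* climbs with the globins toward WT replicate 3 and ISM1-/- replicate 2. The neutrophil and B cell sums are highest in ISM1-/- replicate 1, and the neutrophil sum includes *Ltf*, which was lowest there. The platelet and endothelial sums range 1.36-fold and 1.13-fold.

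Genes for the clearance of free haemoglobin, haem and iron did not follow the globin level in summed CPM. The 10 genes of this list summed to 1776, 1843 and 1785 CPM in WT and to 1499, 1531 and 1518 CPM in ISM1-/-. The WT library with most globin lay between the other WT libraries. The ISM1-/- library with most globin, replicate 2, had the highest ISM1-/- sum. The range over all 6 libraries was 1.23-fold. Most of the sum was *Hp* (590 to 853 CPM) and *Lrp1* (584 to 769 CPM), so it says little about the remaining genes. *Hp*, which encodes haptoglobin, the carrier of free haemoglobin that lung epithelium also makes, was lower in ISM1-/-, at 808 ± 76.6 CPM in WT and 619.7 ± 40.2 CPM in ISM1-/- (SD, n = 3 each). Its log2 fold change was -0.38 ± 0.0805 (edgeR adjusted p = 0.0426), its r with the globins was -0.06, and its adjusted p rose to between 0.137 and 0.167 without any 1 of WT replicates 2 and 3 or ISM1-/- replicates 1 and 2. The other 9 genes did not pass. Of the 10 genes, 3 had an edgeR unadjusted p under 0.05 and 3 did not overlap between the genotypes. These were *Hp*, *Hpx* (log2 fold change -0.71, edgeR unadjusted p = 0.0105, adjusted p = 0.149) and *Lrp1* (-0.20, 0.0225 and 0.215). *Slc40a1* (0.21) and *Spic* (0.60) were higher in ISM1-/-, with overlap. DESeq2 called 1. *Hmox1* (haem oxygenase 1) was at 32.3 ± 1.62 CPM in WT and 29.7 ± 4.10 CPM in ISM1-/-.

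Markers of the lung wall and of adjacent tissue were set beside the globin level for the same reason. The 6 endothelial genes varied 1.13-fold between libraries in summed CPM and 6 alveolar type 2 cell genes 1.08-fold, and by edgeR 0 of 6 passed in each list. In these lists 3 and 1 had an unadjusted p under 0.05, and DESeq2 called 1 and 0. Cardiomyocyte genes summed to 1623, 532 and 634 CPM in WT and to 291, 402 and 566 CPM in ISM1-/-, with 1 of 8 called by edgeR (*Myl7*, lower). All 8 had an unadjusted p under 0.05 by edgeR, a count without a share over all genes beside it. Their median log2 fold change was -1.01, and DESeq2 called 0, against 1285 of all 18689 genes. By edgeR all 6 adipocyte genes were called lower in ISM1-/-, against 3.34% of all genes, and DESeq2 called 5. Their sums were 119, 87.0 and 94.8 CPM in WT against 24.7, 28.9 and 55.3 CPM in ISM1-/-. None of these sums put WT replicate 3 and ISM1-/- replicate 2 together at the top, as the globins did.

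The residual globin was also set beside the genotype comparison over all genes. Of the 106 genes changed at least 2-fold, 53 were higher and 53 lower in ISM1-/-. Leaving the globin genes out of the scaling gave the same 106 genes. With the summed globin level as a covariate in the fit, a check chosen after the data had been seen, 82 genes passed, of which 74 were among the 106. Without a fold minimum 552 genes passed, of which 539 were among the 882. None of the 106, and 2 of the 882, had an r with the globins of 0.5 or more in either direction. A gene that separates the genotypes can hardly follow a level that was highest in a library of each genotype.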

How the data were processed

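RNA was isolated from perfused whole lungs, 3 WT and 3 labelled ISM1-/-, and the authors made strand-specific libraries from poly-A enriched RNA, with reads filtered and mapped by STAR to GRCm38/mm10 (CASAVA is also named in the submitters' processing notes). The counting program, annotation version and strand setting are not given in the sources used here. The deposited counts are raw reads per gene, and the deposited FPKM values scale them by depth and by a length that is not given in the sources used here. All sample columns were matched to samples. Replicates are separate mice, and the replicate numbers do not pair mice across genotypes.

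Genes that reached 0.5 CPM in 1 or more libraries were tested with edgeR 4.0.16 (R 4.3.3; TMM scaling, glmQLFit and glmQLFTest), with Benjamini-Hochberg adjustment over all 18689 genes. A call was an adjusted p under 0.1, with and without a 2-fold minimum. CPM values use the library totals multiplied by the TMM factors. Likeness to the globins was the Pearson r of log2 CPM (prior count 2). The deposited FPKM values served only to compare levels between genes. The lists of genes, the 6 members and the tests were chosen with earlier results of these data known. Named genes were the members, *Ism1*, the genes of each list that passed or were abundant, the detected genes of the erythroid lists and the 10 genes most like the globins, while *Apex2* and the other genes at the limit of detection were named after their values were seen. Some genes that this rule covers are not reported here. The fit was checked on simulated counts. Alternatives were DESeq2 1.42.0, other scalings, filters and thresholds, a replicate block and leaving out each library, and 3 more were added after the data were seen (the globin covariate, leaving out WT replicate 3 and ISM1-/- replicate 2, and list sums without *Vwf* or *Ace*). Intervals of shares and ratios cover counting error only.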

Additional observations from a re-analysis of the deposited data

How the results depend on the processing

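Groups of 3 mice limit what could be detected. The 4 globin genes and *Alas2* stayed short of the threshold under every alternative that could be run, but their direction did not hold. With a replicate block, the log2 fold changes of ISM1-/- over WT were -0.21 for *Hba-a1*, -0.13 for *Hba-a2* and -0.075 for *Hbb-bs*. The numbers did not pair the mice, since the deviations of same-numbered libraries correlated at -0.033, 0.035 and 0.037, and the block gave 130 genes changed at least 2-fold and 1105 genes in all, with *Csf3r* losing its call (adjusted p = 0.111, edgeR). Without both libraries highest in globin, the values were -0.49 for *Hba-a1*, -0.41 for *Hba-a2*, -0.32 for *Hbb-bs*, -0.027 for *Hbb-bt* and -0.24 for *Alas2*. With 1 library left out, the values ran from -0.96 to 0.51 for *Hba-a1*, -0.95 to 0.66 for *Hba-a2*, -0.83 to 0.70 for *Hbb-bs*, -0.60 to 0.74 for *Hbb-bt*, -0.73 to 0.82 for *Alas2* and 1.11 to 2.39 for *Slc4a1*. The lowest of each, apart from *Slc4a1*, came without ISM1-/- replicate 2. *Slc4a1* passed only with no filter on low counts (log2 fold change 1.59), and it could not be tested without ISM1-/- replicate 2, without both high libraries, or with a filter on 3 libraries. Under the 11 alternatives the globin ratio of 1.10 ran from 0.549 without ISM1-/- replicate 2 to 1.57 without WT replicate 3. It was also below 1 without WT replicate 2 (0.879) and without both high libraries (0.779).

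The 106 genes changed at least 2-fold became 293 with no filter, 51 at an adjusted p of 0.05, 31 to 188 with 1 library left out and 18 without both high libraries. The 882 genes at any fold became 1632, 455, 150 to 1470 and 41 under the same settings, and 552 with the globin covariate. Without ISM1-/- replicate 3 the counts were highest (188 and 1470), and without WT replicate 2, WT replicate 3, ISM1-/- replicate 1 or ISM1-/- replicate 2 they fell to 41, 62, 31 and 38 at 2-fold. Fewer libraries leave less information in these fits, and the cause of the other shifts was not tested. DESeq2 called 115 and 1285 genes. Taking each setting with each of the 2 counts, 15 values lay within 1.5 times the main result and 17 did not.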
